A study of Rattus norvegicus with 20 samples.

Results

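The genes described here are 8 genes of the myelin sheath: Mbp, Cnp, Sirt2, Enpp2, Pmp22, Mag, Mog and Mobp. They were taken by gene symbol, as every probe set that the platform annotation assigns to one of these symbols alone, on rat Affymetrix arrays. The rule found 16 probe sets of the 8740 that were tested. The search by symbol used no measured value, but the 8 genes were chosen with earlier results of these data known. Counts of members set against all probe sets below are therefore descriptions and not tests. Mbp, Cnp and Sirt2 have 1 probe set each, Enpp2, Pmp22 and Mog have 2 each, Mag has 3 and Mobp has 4. Probe sets of a gene are numbered here by falling mean intensity, and 0 of the probe sets that name several genes hold a member.

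The 4 groups of rat progenitor cultures were measured on 20 arrays. RA/Fsk cultures are low-density CCg progenitors given RA/Fsk to obtain neurons (4 cultures, 4 arrays), and FBS cultures are the same progenitors given FBS to obtain astrocytes (4 cultures, 6 arrays). HD cultures are progenitors at high density (3 cultures, 6 arrays), and LD cultures are the untreated low-density CCg progenitors (3 cultures, 4 arrays). The labels do not expand CCg, do not mention it for HD, and give no age, strain, dose or time. FBS, RA and Fsk commonly stand for fetal bovine serum, retinoic acid and forskolin, an activator of cyclic AMP synthesis. Density and CCg therefore cannot be told apart as the source of an HD against LD difference. Arrays that share a group and a number are averaged and called a culture. Nothing in the labels says that the numbers are separate cultures, so the p-values measure only the spread between these samples.

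Myelin is the multilayered membrane that oligodendrocytes wrap around axons in the brain and Schwann cells wrap around axons in peripheral nerve. Mbp holds the cytoplasmic faces of the membrane together, Mag sits on the face next to the axon, and Mog lies on the outer surface. As oligodendrocyte precursors mature, Cnp and Mbp come on before Mog, the late marker of the finished sheath. Several of the 8 genes are also used outside the oligodendrocyte. Pmp22 is a membrane protein of compact peripheral myelin, Enpp2 encodes the secreted enzyme autotaxin, and Sirt2 is a deacetylase present in many cells.

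The promoter windows below show the DNA just before the start of Mbp, Cnp and Sirt2, which were higher with RA/Fsk, and of Mobp, for its repeated motif. Each is the 250 bases before the gene's start on the gene's own strand, from RefSeq on build GRCr8, and 6 of the 8 genes, not Mog or Enpp2, had such a window. Capitals mark matches to 5 short motifs on either strand: the retinoid half-sites AGGTCA and GGGTCA, the cyclic AMP half-site TGACG, and the SOX motifs ACAAAG and ACAATG. For Mbp the window of the first listed start is shown. It lies at chr18:78130402-78130651 (+ strand), Cnp at chr10:86011254-86011503 (+), Sirt2 at chr1:93181222-93181471 (+) and Mobp at chr8:128746982-128747231 (+).
Mbp: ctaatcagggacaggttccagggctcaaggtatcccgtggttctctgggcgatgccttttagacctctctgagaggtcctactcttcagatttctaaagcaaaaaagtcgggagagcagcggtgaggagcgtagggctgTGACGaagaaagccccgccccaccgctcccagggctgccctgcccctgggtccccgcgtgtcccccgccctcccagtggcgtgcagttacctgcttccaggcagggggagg
Cnp: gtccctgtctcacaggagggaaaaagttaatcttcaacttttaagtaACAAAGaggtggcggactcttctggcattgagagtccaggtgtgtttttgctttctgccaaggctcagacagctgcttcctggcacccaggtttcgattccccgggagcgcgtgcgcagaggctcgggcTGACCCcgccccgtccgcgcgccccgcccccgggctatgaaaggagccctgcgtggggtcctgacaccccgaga
Sirt2: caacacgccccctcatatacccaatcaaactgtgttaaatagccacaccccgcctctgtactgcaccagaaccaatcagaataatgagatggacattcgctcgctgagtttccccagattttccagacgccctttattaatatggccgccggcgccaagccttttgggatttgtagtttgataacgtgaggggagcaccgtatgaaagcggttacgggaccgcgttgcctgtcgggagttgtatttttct
Mobp: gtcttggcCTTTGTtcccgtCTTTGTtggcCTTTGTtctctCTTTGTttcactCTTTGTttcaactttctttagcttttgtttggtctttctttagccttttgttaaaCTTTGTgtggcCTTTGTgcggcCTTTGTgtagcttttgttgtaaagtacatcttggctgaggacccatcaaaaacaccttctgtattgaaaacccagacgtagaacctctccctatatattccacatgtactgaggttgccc
The Mbp window holds 1 TGACG, 111 bases before the start. The window of the second listed Mbp start, at chr18:78209995-78210244 (+) and not printed, holds 1 GGGTCA, 1 ACAAAG and 2 ACAATG, counting both strands. Which start the measured Mbp transcripts came from was not tested. The Cnp window holds 1 GGGTCA on the opposite strand, printed as TGACCC, 74 bases before the start, and 1 ACAAAG 203 bases before it. The Sirt2 window holds none of the 5 motifs. Pmp22 has 1 AGGTCA 237 bases before its start, and Mag has 1 ACAAAG on the opposite strand at 152 bases. The Mobp window holds 8 copies of ACAAAG on the opposite strand, printed as CTTTGT, between 120 and 242 bases before the start. Among 33469 rat promoter windows of the same length, 14.1% hold AGGTCA, 11.9% GGGTCA, 18.2% TGACG, 16.3% ACAAAG and 11.1% ACAATG. No window holds more than 8 copies of ACAAAG, and 2 windows, Mobp's among them, hold 8 (0.00598%). A match is a description of the letters and not a binding site.

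Values are the deposited intensities, on a linear scale whose median over the whole table is 49.9. A group mean under 49.9 is called dim. Probe sets differ in how brightly they bind, so no level of one is set against that of another. All 4 Mobp probe sets, both Mog probe sets and Mag 3 were dim in every group, which leaves 9 probe sets of 6 genes above that line. For comparison, the 4 yeast control probe sets read 1.0 to 19.6 over the arrays. Arrays of one culture correlated at r = 0.951 to 0.975, arrays of different cultures of a group at 0.940 to 0.979, and arrays of different groups at 0.877 to 0.960. Arrays of one culture were thus no closer to each other than some arrays of different cultures. Differences are log2 differences from one limma fit of all 14 cultures, with the standard error (SE), and a probe set was called where its p-value, adjusted for all 8740 tests by the Benjamini-Hochberg method, was under 0.05.

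**Figure D1:**
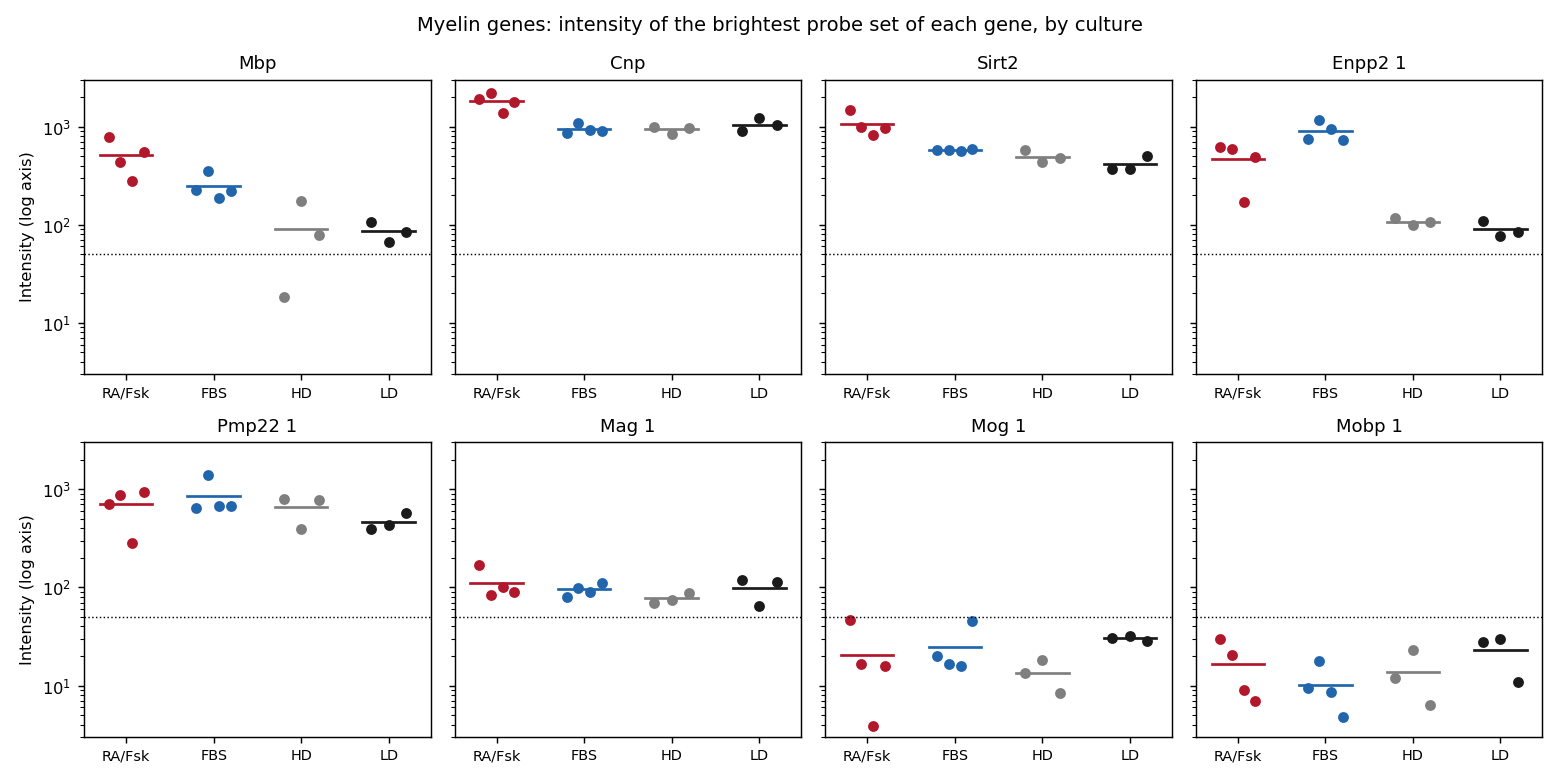
Intensity (log axis) of the brightest probe set of each of the 8 genes in every culture, with RA/Fsk, FBS, HD and LD from left to right. Points are cultures, bars are group means, and the dotted line is the median of the table, 49.9. Mbp, Sirt2 and Enpp2 1 separate the RA/Fsk and FBS cultures from the LD cultures, Cnp separates RA/Fsk alone, and Mog and Mobp lie below the dotted line.

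RA/Fsk treatment went with higher transcript levels of Mbp, Cnp, Sirt2 and Enpp2, and 0 of the 16 myelin probe sets fell. Mbp was 5.46-fold higher than in LD, both Enpp2 probe sets about 4.5-fold, Sirt2 2.54-fold and Cnp 1.72-fold. Pmp22, Mag, Mog and Mobp did not pass the test. In all, 5 of 16 probe sets rose, against a background of 4.71% of all probe sets that rose and 8.25% called in either direction. For 6 of 16 probe sets every RA/Fsk culture lay above every LD culture, against 7.16% of all probe sets. The median difference was 0.13 log2 over the members and -0.05 over all probe sets. In RNA from whole cultures, more cells that express a gene and more RNA in each such cell cannot be told apart.

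Mbp encodes myelin basic protein. It read 789.5, 438.8, 280.2 and 550.2 in the RA/Fsk cultures, against 105.5, 66.7 and 84.3 in the LD cultures. The lowest RA/Fsk culture was above the highest LD culture. The difference was 2.45 ± 0.49 log2 (SE, limma adjusted p = 0.00442, n = 4 and 3). The HD cultures read 18.2, 174.0 and 79.0, the widest spread of any group for this gene on the log2 scale, and enclosed the LD values. The 2 arrays of the lowest HD culture were both low, at 8.6 and 34.7.

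Cnp encodes a cyclic nucleotide phosphodiesterase of the non-compacted myelin layers, where it lies beside the cytoskeleton. The 4 RA/Fsk cultures read 1920, 2175.4, 1382.2 and 1782.4, against 892.2, 1219.8 and 1026.7 in the LD cultures. The groups did not overlap, although LD cultures already lay far above the median of the table. The difference was 0.78 ± 0.15 log2 (adjusted p = 0.00389). Sirt2, a protein deacetylase that acts on tubulin and is found in myelin, read 1484.2, 995.5, 822.1 and 976.7 in RA/Fsk, against 365.9, 368.9 and 503.8 in LD. Again every RA/Fsk culture exceeded every LD culture, by 1.34 ± 0.18 log2 on average (adjusted p = 0.000128).

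Enpp2 encodes autotaxin, a secreted phosphodiesterase that produces lysophosphatidic acid and is made by differentiating oligodendrocytes among other cells. Enpp2 1 read 614.8, 584.1, 169.4 and 494.6 in the RA/Fsk cultures, against 110.1, 75.8 and 83.5 in LD. Enpp2 2 read 382.0, 401.3, 126.2 and 332.8 in RA/Fsk, against 59.1, 47.2 and 73.0 in LD. The third RA/Fsk culture stood well below the other 3 on both probe sets and still above every LD culture. The differences were 2.17 ± 0.33 log2 (adjusted p = 0.000444) and 2.18 ± 0.32 log2 (adjusted p = 0.000347).

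FBS treatment went with higher transcript levels of Enpp2 and Mbp, while Cnp and Sirt2 did not pass the test against LD. Against LD, 3 of the 16 probe sets rose and 0 fell, where 13.2% of all probe sets rose and 25.5% were called in either direction. For 5 of 16 probe sets every FBS culture lay above every LD culture, against 16.9% of all probe sets. Enpp2 1 was 9.45-fold higher, Enpp2 2 was 7.88-fold higher and Mbp 2.75-fold higher. The median difference was -0.02 log2 over the members and -0.09 over all probe sets. The comparisons of RA/Fsk and of FBS with LD share their 3 LD cultures.

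Enpp2 1 read 747.9, 1165, 937.5 and 735.6 in the FBS cultures, against 110.1, 75.8 and 83.5 in LD. Enpp2 2 read 400.8, 717.6, 507.7 and 421.7 in FBS, against 59.1, 47.2 and 73.0 in LD. Both probe sets put all FBS cultures far above all LD cultures, by 3.24 ± 0.33 log2 (limma adjusted p = 1.71e-06) and 2.98 ± 0.32 log2 (adjusted p = 2.95e-06).

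Mbp read 225.8, 353.6, 186.1 and 222.8 in the FBS cultures, against 105.5, 66.7 and 84.3 in LD. The groups did not overlap, and the difference of 1.46 ± 0.49 log2 passed narrowly (adjusted p = 0.0373). The FBS value of 186.1 averages 2 arrays that disagreed, at 388.7 and 87.8. With array 3r alone the difference was 1.20 (adjusted p = 0.138). It also missed the threshold without any 1 of the 3 LD cultures (adjusted p = 0.0552, 0.124 and 0.0838) or without FBS culture 1, 2 or 4 (0.0631, 0.102 and 0.061). Of the 7 LD and FBS cultures, FBS culture 3 was the only one whose removal kept the call.

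Sirt2 read 577.4, 579.8, 558.3 and 590.8 in the FBS cultures, against 365.9, 368.9 and 503.8 in LD. The FBS cultures lay close together and above every LD culture, but the difference of 0.49 ± 0.18 log2 did not pass (adjusted p = 0.0518). Cnp read 868.7, 1080.4, 932.6 and 908.5 in FBS, inside the LD range of 892.2 to 1219.8 for 3 of 4 cultures. The difference was -0.14 log2 with a 95% interval of -0.46 to 0.19, a range that does not reach the rise seen with RA/Fsk.

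**Figure D2:**
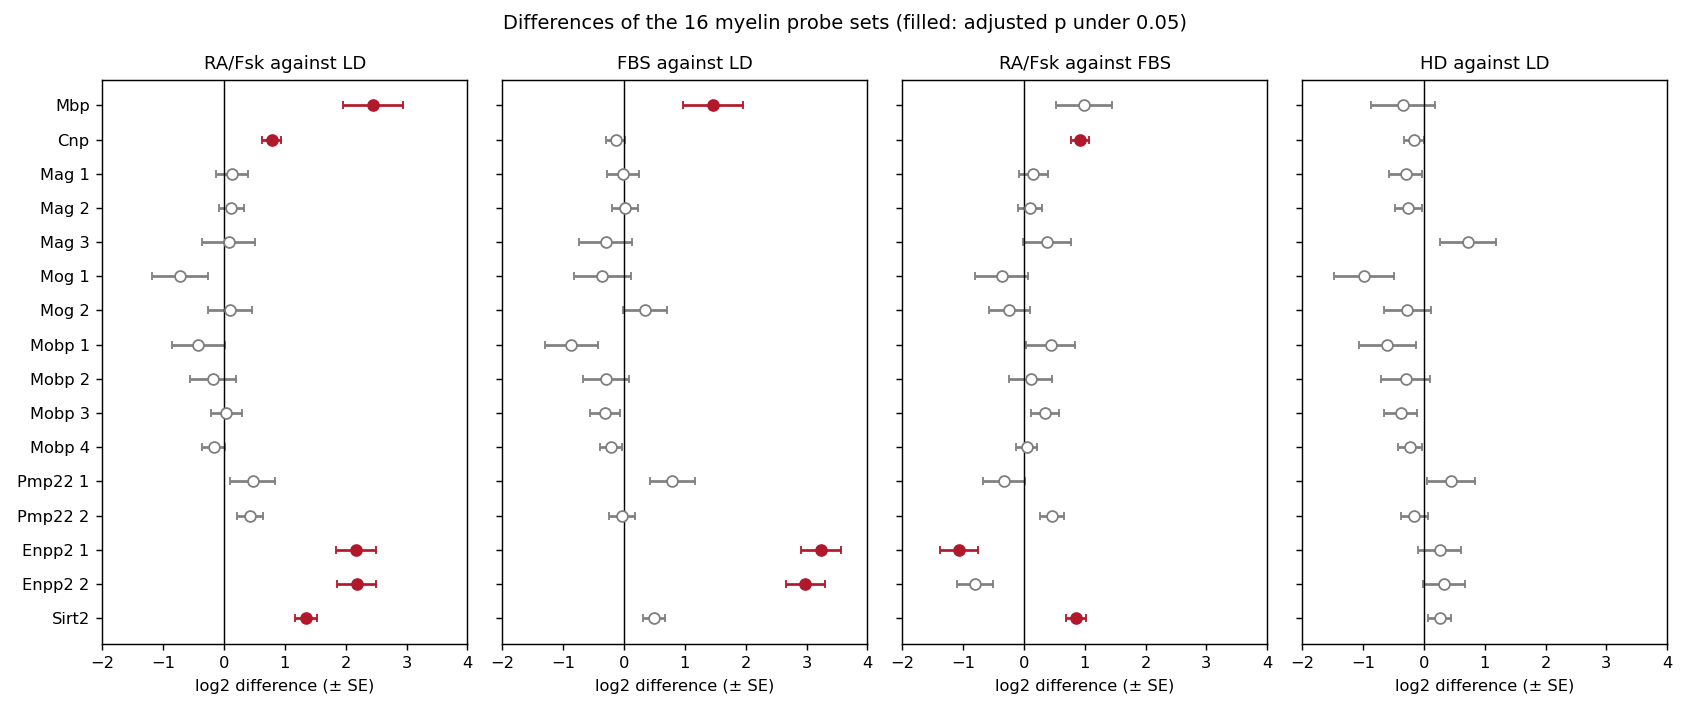
Log2 difference with its SE for each of the 16 myelin probe sets in the 4 comparisons, with filled points for adjusted p under 0.05. Filled points lie at Mbp, Cnp, Sirt2 and both Enpp2 probe sets for RA/Fsk against LD, at Mbp and Enpp2 for FBS against LD, and nowhere for HD against LD.

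The treatments were then set against each other. Cnp and Sirt2 were higher with RA/Fsk than with FBS, 1.89-fold and 1.80-fold, and Enpp2 1 was 2.10-fold lower. Of the 16 probe sets 2 rose and 1 fell, against backgrounds of 8.27% that rose and 10.1% that fell (18.4% in either direction). Without overlap, 3 were higher and 1 lower, against 10.3% and 11.2% of all probe sets. The median difference was 0.13 log2 over the members and 0.06 over all probe sets.

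For Cnp every RA/Fsk culture (1382.2 to 2175.4) exceeded every FBS culture (868.7 to 1080.4), a difference of 0.92 ± 0.14 log2 (adjusted p = 0.000178). For Sirt2 the RA/Fsk cultures (822.1 to 1484.2) likewise lay above the FBS cultures (558.3 to 590.8), by 0.85 ± 0.16 log2 (adjusted p = 0.00124). Enpp2 1 ran the other way, with RA/Fsk at 169.4 to 614.8 and FBS at 735.6 to 1165. Its difference was -1.07 ± 0.31 log2 (adjusted p = 0.0208), and without RA/Fsk culture 3 it was -0.64 (adjusted p = 0.0171). It missed the threshold without FBS culture 2 (-0.93, adjusted p = 0.0744) or FBS culture 3 (-1.04, adjusted p = 0.0512). Enpp2 2 differed by -0.80 ± 0.30 log2 (adjusted p = 0.0767), with 1 RA/Fsk culture, at 401.3, reaching the lowest FBS value of 400.8. For Mbp the RA/Fsk cultures (280.2 to 789.5) and the FBS cultures (186.1 to 353.6) overlapped, and the difference of 0.99 ± 0.45 log2 did not pass (adjusted p = 0.165). Without HD culture 1, which enters only through the shared spread, it passed (adjusted p = 0.0334).

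By mean intensity, the order of the groups was the same for Mbp and Sirt2 and different for Enpp2 1 and Cnp. Mbp averaged 514.7 ± 214.1 in RA/Fsk, 247.1 ± 73.3 in FBS, 90.4 ± 78.5 in HD and 85.5 ± 19.4 in LD (SD, n = 4, 4, 3 and 3). On the log2 scale of the fit the mean of Mbp was instead lower in HD (6.14) than in LD (6.48). Sirt2 was higher in HD on that scale too (8.96 against 8.69). For Mbp neither HD against LD nor RA/Fsk against FBS passed the test. For Sirt2 the order was again RA/Fsk at 1069.6 ± 287.1, FBS at 576.6 ± 13.5, HD at 494.8 ± 72.3 and LD at 412.9 ± 78.8. For Enpp2 1 RA/Fsk, at 465.7 ± 204.0, came below FBS, at 896.5 ± 201.5, and above HD, at 107.5 ± 9.57, and LD, at 89.8 ± 18.0. For Cnp RA/Fsk stood alone at 1815 ± 331, while FBS at 947.6 ± 92.4, HD at 934.5 ± 81.8 and LD at 1046.2 ± 164.7 were close. FBS and HD were not compared by a test.

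The labels give low-density CCg progenitors, not HD, as the cells that were treated. The comparison of HD with LD asks only whether the untreated progenitor groups differ from each other. It called 0 of the 16 myelin probe sets, and 0 had an unadjusted limma p under 0.05, against a background of 0.858% called. The smallest adjusted p was 0.399, for Mog 1, a dim probe set. Sirt2 read 573.6, 431.7 and 479.0 in HD, against 365.9, 368.9 and 503.8 in LD (0.26 ± 0.19 log2). Enpp2 1 read 117.8, 98.9 and 105.8 in HD, against 110.1, 75.8 and 83.5 in LD (0.26 ± 0.35 log2). Cnp read 988.9, 840.5 and 974.1 in HD, against 892.2, 1219.8 and 1026.7 in LD. The HD and LD cultures overlapped for each of these. The 95% interval of the HD minus LD difference ran from -0.50 to 0.19 log2 for Cnp and from -1.45 to 0.77 for Mbp, so an Mbp level 2-fold lower in HD lies within the interval. Mag 2, Mog 1 and Mobp 3 were lower in HD without overlap, 3 of 16 against a background of 11.9%. The median was -0.24 log2 over the members and -0.08 over all probe sets.

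Pmp22 encodes a membrane protein of compact peripheral myelin that is also made in many dividing cells. Neither of its probe sets was called in any of the 4 comparisons as reported. Pmp22 1 read 709.2, 865.7, 284.5 and 943.5 in RA/Fsk, 645.5, 1395.7, 673.6 and 673.0 in FBS, 787.1, 397.4 and 784.1 in HD, and 397.3, 431.2 and 566.8 in LD. All FBS cultures exceeded all LD cultures on Pmp22 1 (0.79 ± 0.37 log2, adjusted p = 0.137), while 1 RA/Fsk culture fell below LD (0.47 ± 0.37, adjusted p = 0.538). Pmp22 2 read 128.6, 83.5, 88.9 and 90.6 in RA/Fsk, 70.8, 71.9, 61.5 and 71.4 in FBS, 75.8, 55.4 and 58.4 in HD, and 72.9, 78.5 and 60.8 in LD. On Pmp22 2 it was the RA/Fsk cultures that lay above all LD cultures (0.43 ± 0.21, adjusted p = 0.261) and all FBS cultures (0.46 ± 0.20, adjusted p = 0.127). The RA/Fsk minus FBS difference of Pmp22 2 passed with quantile normalization (adjusted p = 0.0288) or median centring (adjusted p = 0.0373). The FBS minus LD difference of Pmp22 1 passed without RA/Fsk culture 3 (adjusted p = 0.0412). Over the 14 cultures the log2 values of the 2 Pmp22 probe sets correlated at r = 0.079, and those of the 2 Enpp2 probe sets at r = 0.992.

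**Figure D3:**
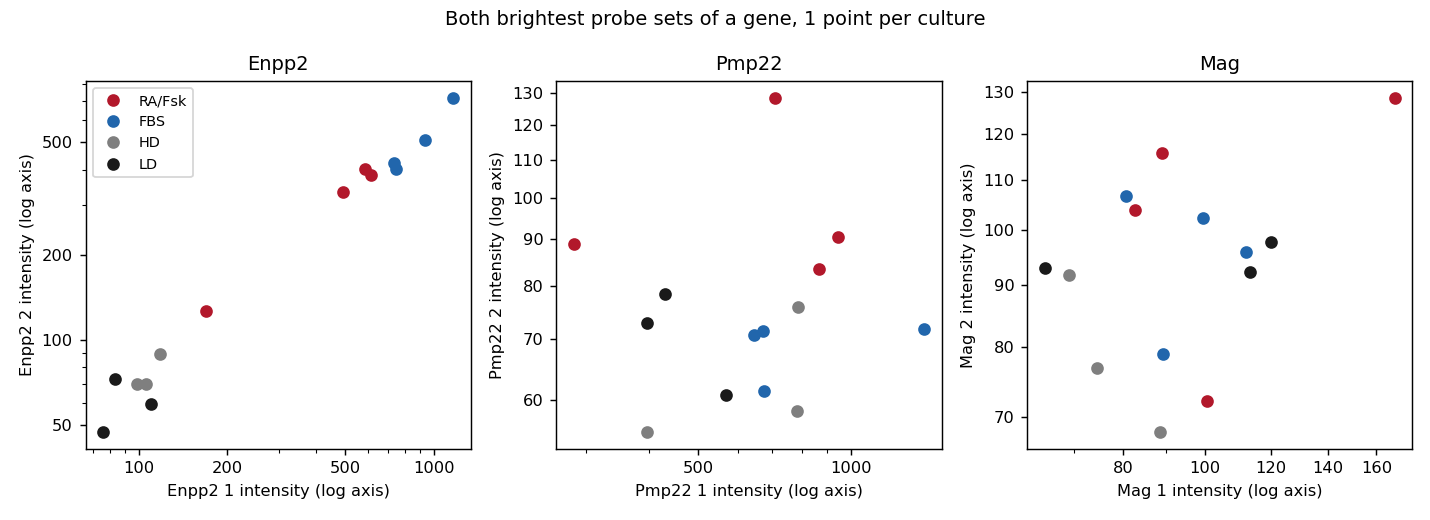
Intensity of the second-brightest probe set of Enpp2, Pmp22 and Mag against the brightest (both axes log), with 1 point per culture, coloured by group. The Enpp2 probe sets follow each other over the 14 cultures (r = 0.992), whereas those of Pmp22 (r = 0.079) and Mag (r = 0.384) do not form a line.

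Mag, an adhesion molecule that the myelin sheath turns towards the axon, was measured above 49.9 by Mag 1 and Mag 2. Mag 1 read 168.3, 82.7, 100.7 and 89.0 in RA/Fsk, 80.6, 99.7, 89.2 and 112.0 in FBS, 69.1, 74.5 and 88.5 in HD, and 119.9, 64.6 and 113.3 in LD. Mag 2 read 128.6, 103.8, 72.2 and 115.7 in RA/Fsk, 106.8, 102.3, 78.9 and 95.8 in FBS, 91.7, 76.9 and 68.0 in HD, and 97.7, 93.0 and 92.3 in LD. The ranges of the treated and LD cultures overlapped on both. The RA/Fsk minus LD difference was 0.14 log2 for Mag 1 (95% interval -0.42 to 0.69) and 0.12 for Mag 2 (-0.33 to 0.57). For FBS minus LD it was -0.02 (-0.57 to 0.53) and 0.02 (-0.43 to 0.46). Both RA/Fsk intervals end below the difference of Cnp, 0.78 log2, the smallest one called among the members with RA/Fsk. Mag 3 was dim, with 10.9 to 29.8 in RA/Fsk, 8.8 to 35.8 in FBS, 28.7 to 43.6 in HD and 10.1 to 37.7 in LD.

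Mog, an immunoglobulin-like protein of the outer myelin surface, was dim on both probe sets. Mog 1 read 46.1, 16.7, 3.9 and 15.8 in RA/Fsk, 20.2, 16.5, 15.9 and 45.1 in FBS, 13.3, 18.1 and 8.4 in HD, and 30.3, 32.1 and 28.2 in LD. Mog 2 ranged from 11.6 to 30.3 in RA/Fsk, from 10.3 to 36.2 in FBS, from 9.7 to 12.8 in HD and from 8.8 to 20.3 in LD. Mobp is a small basic protein of compact central myelin. Mobp 1 read 29.8, 20.3, 9.1 and 6.9 in RA/Fsk, 9.5, 17.8, 8.5 and 4.8 in FBS, 11.9, 22.8 and 6.3 in HD, and 27.8, 30.1 and 10.9 in LD. Mobp 2 read 3.7 to 20.8 in RA/Fsk, 6.6 to 20.0 in FBS, 9.3 to 14.4 in HD and 8.7 to 23.4 in LD. Mobp 3 stayed between 4.1 and 14.8 in all cultures, and Mobp 4 between 1.1 and 6.1. None of the 6 Mog and Mobp probe sets was called in any of the 4 comparisons, and no detection calls were used here to say whether these transcripts were present.

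Some cultures stood low or high on many members. RA/Fsk culture 3 had the lowest value of its group on 10 of the 16 probe sets and the highest on 0. Over all tested probe sets it was lowest on 35.0% and highest on 20.4%. RA/Fsk culture 1 was highest on 10 of the 16 and lowest on 0 (highest on 39.2% of all probe sets), and HD culture 1 was highest on 12 of the 16 (41.6% of all). Without RA/Fsk culture 3 the same 5 probe sets rose against LD, with Mbp at 2.70 log2, Enpp2 1 at 2.60, Enpp2 2 at 2.56, Sirt2 at 1.46 and Cnp at 0.91. Leaving it out also brought the count called for FBS against LD to 5 through the shared estimate of spread.

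Other myelin genes were counted beside the members, each by its brightest probe set. Over all probe sets 4.71% rose and 3.54% fell with RA/Fsk against LD, and 13.2% rose and 12.3% fell with FBS against LD. With FBS, 1 of 8 or 2 of 14 genes in a direction is near those shares. Counts between the treatments are to be set against 8.27% of all probe sets higher with RA/Fsk than with FBS and 10.1% lower. Of 24 further myelin proteins 8 were measured. With RA/Fsk 1 rose against LD and 0 fell: Cd9, a tetraspanin of glial membranes, read 1497 to 2152 in RA/Fsk and 395 to 516 in LD (1.94 ± 0.14 log2, limma adjusted p = 2.09e-07). With FBS 1 rose and 1 fell: Cd9 by 2.86 ± 0.14 log2 (adjusted p = 4.9e-10), while Apod, a lipid carrier of myelinating glia, fell by 2.17 on the log2 scale (adjusted p = 4.39e-07). Apod read 586 to 1069 in RA/Fsk, 133 to 195 in FBS and 619 to 779 in LD. Between the treatments Apod (2.45 log2, adjusted p = 5.34e-08) and Gjb1, a gap junction protein of myelin (0.67 log2, adjusted p = 0.042), were higher with RA/Fsk, and Cd9 was lower (-0.92 log2, adjusted p = 7.47e-05).

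Of 11 enzymes of myelin lipids 2 were measured. Ugt8, which makes the myelin lipid galactosylceramide, read 143 to 340 in RA/Fsk, 57.8 to 80.5 in FBS and 133 to 205 in LD. It fell with FBS against LD by 1.29 on the log2 scale (adjusted p = 0.00113) and was 1.87 log2 higher with RA/Fsk than with FBS (adjusted p = 2.87e-05). Its dimmer probe set differed by 0.01 log2 between the treatments. Psap, the precursor of lysosomal sphingolipid activators, rose with RA/Fsk (0.77 log2, adjusted p = 0.000398) and with FBS (0.86 log2, adjusted p = 2.65e-05).

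Of 17 transcription factors of myelinating lineages 8 were measured. Egr2, known as a driver of Schwann cell myelination, read 235 to 553 in RA/Fsk, 164 to 608 in FBS, 9.3 to 25.7 in HD and 33.1 to 36.6 in LD. It rose against LD with RA/Fsk (3.31 ± 0.40 log2, adjusted p = 5.41e-05) and with FBS (2.79 ± 0.40 log2, adjusted p = 4.57e-05). With RA/Fsk 1 factor rose and 1 fell, namely Id2, an inhibitor of basic helix-loop-helix factors (-0.99 log2, adjusted p = 0.0145). With FBS 1 rose and 3 fell, with Pou3f1, a factor of promyelinating Schwann cells, at -2.13 log2 (adjusted p = 0.000534). The other falls, named after their values were seen, were Myrf (-0.73, adjusted p = 0.024) and Hes5 (-1.21, adjusted p = 0.048). Between the treatments 3 were higher with RA/Fsk, namely Pou3f1 (2.11 log2), Sox10, a factor of both myelinating lineages (0.86 log2, adjusted p = 0.0167), and Myrf (0.63 log2, adjusted p = 0.0453). Id2 was lower (-1.62 log2, adjusted p = 5.33e-05).

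Of 20 signals and receptors 14 were measured. Lpar1, a receptor for the lysophosphatidic acid that autotaxin produces, read 83.9 to 134 in RA/Fsk, 52.3 to 114 in FBS and 11.8 to 24.4 in LD. It rose with RA/Fsk (2.21 ± 0.29 log2, adjusted p = 0.000111) and with FBS (1.90 ± 0.29 log2, adjusted p = 8.4e-05). Plpp1, which breaks down lysophosphatidic acid, read 780 to 1827 in RA/Fsk, 1966 to 2892 in FBS and 581 to 890 in LD. It rose with FBS (1.76 log2, adjusted p = 0.000168), and its difference with RA/Fsk was 0.80 log2 (adjusted p = 0.101), although 1 of its 2 dimmer probe sets rose. Plpp3, a related phosphatase, was 0.84 log2 higher with RA/Fsk than with FBS (adjusted p = 0.00271). Fyn, a kinase of oligodendrocyte maturation, fell with FBS by 0.64 on the log2 scale (adjusted p = 0.00234) and was 0.92 log2 higher with RA/Fsk than with FBS (adjusted p = 7.82e-05). In all, 2 of the 14 rose and 0 fell with RA/Fsk, and 2 rose and 2 fell with FBS. Of the 5 Igf1 probe sets, 1 that was not the brightest rose with FBS (differences of the 5 from -0.08 to 1.81 log2). Between the treatments 2 of these 5 were lower with RA/Fsk than with FBS (differences from -2.76 to 0.50 log2). HD against LD called 0 genes in these 4 lists.

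Markers of the cell types that such cultures could hold were counted in the same way, and the part of those that moved in the results above was not tested. The shares of all probe sets to set these counts against are 4.71% higher and 3.54% lower with RA/Fsk. With FBS they are 13.2% higher and 12.3% lower. Summed intensities add probe sets that bind differently, so each sum below is carried by the brightest genes of its list and measures no share of cells. Of 5 measured oligodendrocyte markers (Mag, Mal, Mobp, Mog and Ugt8), 0 rose and 0 fell with RA/Fsk, and 1, Ugt8, fell with FBS. Their summed intensity ran from 310 to 569 in RA/Fsk, 209 to 285 in FBS, 301 to 316 in HD and 352 to 391 in LD, and 2 to 3 of the 5 were dim in each group. Mag, Mog and Mobp are members already reported as not called, and Mal and Ugt8 belong to lists above. None of the called members is among these 5, so their counts are no separate evidence on oligodendrocytes. Of 10 measured Schwann cell markers, 2 rose and 0 fell with RA/Fsk, and 2 rose and 1 fell with FBS. The 2 that rose with RA/Fsk were Egr2 and Erbb3 (0.81 log2, adjusted p = 0.0231). Both of them, and Prx, Gjb1, Sox10 and Pou3f1, were already counted in the lists above. Between the treatments 4 of the 10 were higher with RA/Fsk than with FBS and 0 lower. Of all probe sets 8.27% were higher and 10.1% lower in that comparison. Of the 5 oligodendrocyte markers 1 was higher and 0 lower. Ngfr, a neurotrophin receptor of immature Schwann cells, was not called on its brighter probe set (-0.14 log2 with FBS), while its dimmer one rose with FBS by 3.62 log2. Summed over the 10 genes, the intensity was 2618 to 3880 in RA/Fsk, 2313 to 2792 in FBS, 2290 to 2515 in HD and 2392 to 2454 in LD. Of 6 measured oligodendrocyte precursor markers, 0 rose and 1 fell with RA/Fsk, and 1 rose and 2 fell with FBS. Between the treatments 3 of the 6 were higher with RA/Fsk than with FBS and 1 lower. Sox10 is in both this list and the Schwann cell list. Pdgfra, the growth factor receptor of these precursors, read 487 to 1030 in RA/Fsk, 110 to 144 in FBS, 491 to 982 in HD and 562 to 999 in LD. Of 9 measured astrocyte markers, 3 rose with RA/Fsk and 6 with FBS, and their summed intensity was 8445 to 9898 in RA/Fsk, 6715 to 9255 in FBS, 3952 to 5447 in HD and 2518 to 3133 in LD. The sum is carried by the brightest genes, and between the treatments 1 astrocyte marker was higher and 3 lower with RA/Fsk than with FBS. HD against LD called 1 of the 9, Aldoc, which was higher in HD (0.94 log2, adjusted p = 0.0127). S100b, a calcium-binding protein of astrocytes that oligodendrocytes and Schwann cells also make, rose by 2.85 log2 with RA/Fsk and by 2.54 log2 with FBS. Of 7 measured neuron markers, 0 rose with RA/Fsk and 1, Gap43, fell (-0.88 log2, adjusted p = 0.0121), although the labels give neurons as the aim of RA/Fsk. With FBS 1, Nefm, a neurofilament subunit, rose (2.26 log2, adjusted p = 0.00765) and 0 fell. Their summed intensity was 1171 to 1447 in RA/Fsk, 1288 to 1487 in FBS, 1373 to 2143 in HD and 1313 to 1472 in LD. Of 9 microglia and macrophage markers 0 were called in any comparison, and 7 or 8 were dim in each group. Of 8 fibroblast and meningeal markers, 0 were called with RA/Fsk, and 1 rose and 1 fell with FBS.

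The balance of signal between the ends of a control transcript, a sign of RNA quality, differed between FBS and LD. The log2 ratio of the GAPDH 5' to 3' control probe sets averaged -0.06 in FBS and -0.33 in LD, a difference of 0.27 (two-sided exact permutation p = 0.0286, the smallest that 4 against 3 cultures allow). With RA/Fsk the difference was 0.04 from LD (exact permutation p = 0.714) and -0.23 from FBS (exact permutation p = 0.0571). HD differed from LD by 0.26 (exact permutation p = 0.1, the smallest that 3 against 3 cultures allow). With that ratio as a covariate, the FBS minus LD difference of Mbp was 1.14 log2 (adjusted p = 0.244), and both Enpp2 probe sets remained called. The RA/Fsk minus FBS difference of Enpp2 1 was then -0.75 log2 (adjusted p = 0.219).

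The genes whose levels followed the called members most closely were ranked by Pearson correlation of log2 values over the 14 cultures. The cultures fall into groups, so these values describe a shared ordering of groups more than independent points. Closest to Mbp were Ghr, the growth hormone receptor (r = 0.918), Arpc1b, a subunit of the actin-branching complex (0.916), and Crem, a cyclic AMP-responsive transcription factor (0.903). Closest to Cnp were Hacl1, a peroxisomal lyase (0.939), Dbi, an acyl-CoA-binding protein (0.925), and Pnlip, a lipase (0.909). Closest to Enpp2 1 were Hibadh, an enzyme of valine breakdown (0.967), Gsta4, a glutathione transferase (0.959), and Errfi1, an inhibitor of the EGF receptor (0.957). Closest to Sirt2 were Abhd14b, a small hydrolase (0.911), Syngr2, a vesicle membrane protein (0.908), and Ccl2, a chemokine (0.903). Among the members themselves, Cnp and Sirt2 correlated at 0.820, Mbp and Sirt2 at 0.722, and Mbp and Cnp at 0.600.

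The fit was repeated under 25 alternative settings of scaling, averaging and culture choice. Of the 11 called differences, 9 kept their direction and their call in all of them, and the plot of alternatives shows the spread of each.

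**Figure D4:**
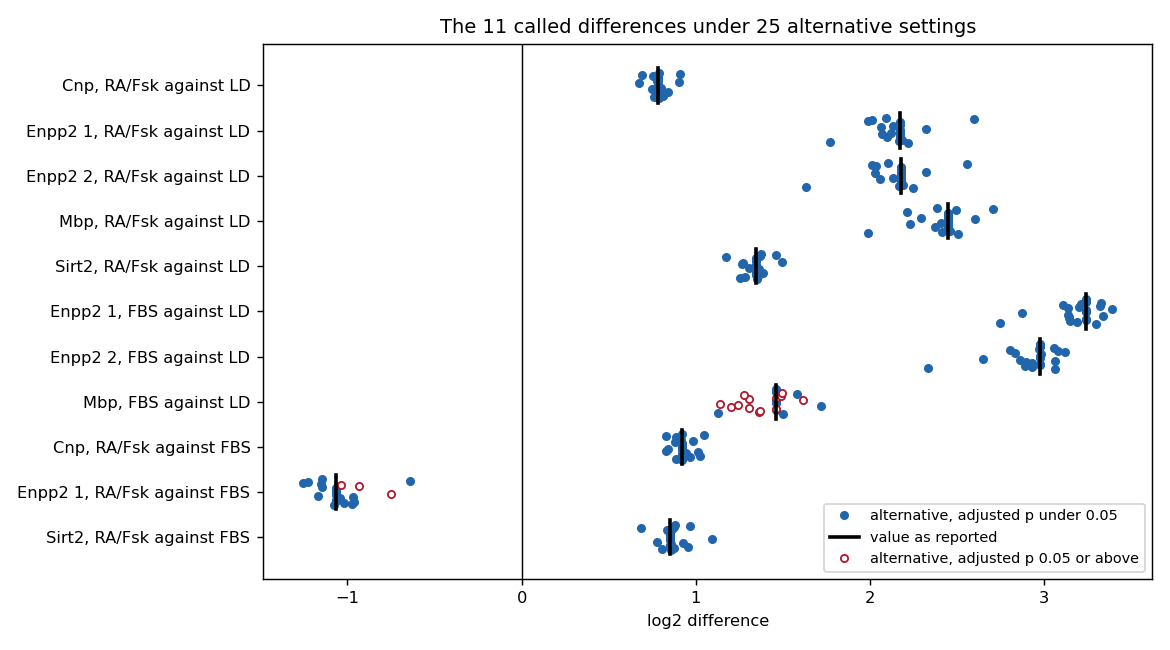
Log2 differences of the 11 called member differences (black bars) and their values under 25 alternative settings (points). Filled points passed at adjusted p under 0.05 and open points did not. All points keep the sign of the black bar, and open points occur only for Mbp in FBS against LD and for Enpp2 1 in RA/Fsk against FBS.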

How the data were processed

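Transcript levels were measured on 20 rat Affymetrix arrays with 8799 probe sets. The table deposited by the authors holds linear intensity values, while how they were summarised, background-corrected or called as detected is not stated in the labels. The deposited values look scaled to a common level, since the array means after 2% of values are trimmed at each end lie between 200.28 and 200.46. The number of arrays limits the precision.

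From these values, log2(intensity + 4.99) was computed, where 4.99 is 10% of the median positive value, 49.9. Arrays with the same group and number were averaged (14 cultures). The 59 control probe sets were left out, with no filter on brightness, and 8740 were tested in limma 3.58.1 (R 4.3.3; lmFit, eBayes with trend). The script was tested on simulated data. Alternatives covered the pseudocount, quantile and median scaling, a brightness filter, the trend, array averaging, a replicate block, the GAPDH ratio and each culture left out. Genes come from the platform annotation: 7006 probe sets carry 1 symbol, 308 several and 1426 none. The 191 probe sets with # in their identifier are not named in it. From each other list, up to 4 called genes with the smallest adjusted p were named, and any further list gene or cell type marker was picked with its values in view. The 3 closest genes were named for each called member.

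The members and all lists were chosen with earlier results of these data known. Deviations from group means correlated between same-numbered RA/Fsk and LD cultures at 0.327, 0.157 and 0.108. All were above 0.1, the rule by which these numbers were treated as pairs. No values for differently numbered cultures are set beside them, so they do not show that the cultures are paired. For other comparisons at least 1 pair was below 0.1. The RA/Fsk against LD values reported above come from the fit without this pairing, which entered only as the replicate block among the alternatives.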

Additional observations from a re-analysis of the deposited data

Results flagged for a closer look

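For each of the 16 probe sets, the 4 RA/Fsk and the 4 FBS cultures were searched for a culture far from the other 3. Of these 32 sets, 5 held one, where chance gives about 1 in 20 for independent sets of normally spread values. The sets here are not independent, since the 2 Enpp2 probe sets correlated at r = 0.992, so no excess is read from the count. Enpp2 1 at 169.4 (next lowest 494.6) and Enpp2 2 at 126.2 (next lowest 332.8) stood low in RA/Fsk culture 3. Pmp22 1 stood high in FBS culture 2, at 1395.7 with the next at 673.6. Pmp22 2 stood low in FBS culture 3, at 61.5 with the next at 70.8. Mag 3 stood high in FBS culture 4, at 35.8 with the next at 11.2, both dim values.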

How the results depend on the processing

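Of the 11 called member differences, 9 kept their direction and their call under all 25 alternatives, and 0 of the 64 differences reversed a call. The exceptions were Mbp for FBS against LD (1.13 to 1.72 log2, adjusted p 0.00335 to 0.244, lost in 13 alternatives) and Enpp2 1 for RA/Fsk against FBS (-1.25 to -0.64 log2, adjusted p 0.00487 to 0.219, lost in 3). Leaving out 1 culture at a time, the probe sets called for FBS against LD numbered 2 to 5. With the replicate number as a replicate block, 5 myelin probe sets were called for RA/Fsk against LD and 4 for FBS against LD. The count was 4 for RA/Fsk against FBS and 0 for HD against LD. The block changed no call for RA/Fsk against LD, the comparison treated as paired. In the other comparisons the block lost Mbp with FBS (1.24, adjusted p = 0.0637) and added Sirt2 with FBS (adjusted p = 0.039), Mobp 1 with FBS (-1.06, adjusted p = 0.0213) and Enpp2 2 between treatments (adjusted p = 0.0427). Other gained calls were Mbp between treatments without HD culture 1 (adjusted p = 0.0334), Pmp22 2 between treatments with quantile normalization (0.0288) or median centring (0.0373), and Pmp22 1 with FBS without RA/Fsk culture 3 (0.0412). Sirt2 with FBS passed in 7 alternatives. Over all probe sets, HD against LD called 75, but 465 with each array as its own sample and 23 to 110 without 1 culture. For RA/Fsk against FBS, median centring gave 852 higher and 688 lower, against 723 and 883 as reported. Among the other lists, lineage transcription factors called with FBS against LD numbered 4 (2 to 5 over the alternatives), with RA/Fsk against LD 2 (1 to 4), and with RA/Fsk against FBS 4 (2 to 4). Lipid enzymes numbered 1 (1 to 2) with RA/Fsk, against LD and against FBS alike. Other myelin proteins with FBS numbered 2 (2 to 4), and signals and receptors with RA/Fsk 2 (1 to 3). Causes of these changes were not tested. Probe sets below the median of the table, 7 of the 16, limit what can be said of Mog and Mobp.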
